A study of Mus musculus with 4 samples.

Results

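The respiratory chain subunits are the proteins that make up complexes I to V of mitochondrial oxidative phosphorylation, together with cytochrome c. Their genes were taken by name from the deposited table: 117 names matched the standard stems of the subunit families (Nduf, Sdh, Uqcr, Cox4 to Cox8, Atp5, Cyc1, Cycs and the mitochondrial mRNAs), 13 of these were left out as pseudogenes with -ps in the name, and 4 were left out because their summed count was under 40. The remaining 100 of the 55401 genes in the table were described, of which 13 lie on mitochondrial DNA and 87 in the nucleus. The genes left out for low counts were Cox7b2, Cox8c and a second Atp5o entry, each with a summed count of 0, and Ndufa11b, with 4. Just above the limit were Cox6b2 with a summed count of 59, Cox8b with 145 and Ndufs6b with 181. The stems do not take Ndufab1, nor Ndufb1-ps, so these 2 subunits stand outside the set, and 3 of the 87 nuclear genes (Ndufb4c, Ndufs6b and Cox6c2) are annotated as pseudogenes.

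Expression was measured by RNA sequencing of poly(A) RNA in bone marrow-derived macrophages of 8-week C57BL/6 mice, grown with M-CSF and then kept for 24 h together with MC38, a mouse colon carcinoma line. The 2 control libraries, numbered 1 and 3, came from Mettl3fl/fl mice, in which the Mettl3 gene is flanked by recombination sites, and the 2 knockout libraries, also numbered 1 and 3, from LysM-cre, Mettl3fl/fl mice. Mettl3 encodes the catalytic subunit of the writer of N6-methyladenosine on mRNA, and the LysM promoter drives Cre in myeloid cells. All 4 libraries carried the floxed allele and had been co-cultured, and no library without tumour cells or with Cre alone was analysed here. The series calls them biological replicates and does not say whether an equal number marks a shared litter or day.

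Electrons from NADH enter the chain at complex I and those from succinate at complex II, pass through complex III and cytochrome c, and reach oxygen at complex IV. Complexes I, III and IV pump protons, and complex V (ATP synthase) uses the gradient to make ATP. Mitochondrial DNA, transcribed from both strands as long precursors, encodes core subunits of complexes I, III, IV and V, while complex II and cytochrome c are encoded in the nucleus alone. In macrophages the chain is known for its shift in use on inflammatory activation and for succinate oxidation at complex II.

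Part of the mitochondrial genes have near-identical counterparts in the nuclear genome, and the sequences show how little separates them. The span of mitochondrial DNA from base 6390 to 11042 (4653 bases), called the copied stretch below, holds genes with matches in the same order on chromosome 1. These lie within bases 24611535 to 24616188 on the minus strand (GRCm38), where 7 gene models carry them: Gm29216 for mt-Co1, Gm28661 for mt-Co2, Gm10925 for mt-Atp6, Gm28437 for mt-Co3, Gm28438 for mt-Nd3, Gm10222 for mt-Nd4l and Gm28439 for mt-Nd4. Only transcripts were aligned, so bases between the gene models were not compared. Identity over the aligned part was 100% for 5 of the 7, 99.8% for Gm29216 and 99.7% for Gm28438. The match took in nearly the whole gene except in mt-Co1 (483 of 1545 bases) and mt-Nd4 (876 of 1378 bases). The sequences printed here are the start of the match in mt-Co1, the start of mt-Nd3 and the start of mt-Atp6, each above its copy, from the GENCODE M21 transcripts and written 5′ to 3′, with the only base that differs in capitals (none differs in mt-Atp6).
mt-Co1: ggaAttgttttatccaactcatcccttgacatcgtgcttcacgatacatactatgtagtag
Gm29216: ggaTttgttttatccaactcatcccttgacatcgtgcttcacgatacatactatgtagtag
mt-Nd3: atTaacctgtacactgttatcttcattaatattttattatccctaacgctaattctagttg
Gm28438: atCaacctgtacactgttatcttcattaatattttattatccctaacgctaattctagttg
mt-Atp6: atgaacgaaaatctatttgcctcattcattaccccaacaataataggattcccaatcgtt
Gm10925: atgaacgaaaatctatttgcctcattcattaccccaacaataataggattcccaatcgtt
Counted from 1 at the first base of the mitochondrial gene, the differences are A1066T between mt-Co1 and Gm29216 and T3C between mt-Nd3 and Gm28438. The mt-Co1 window lies at bases 6390 to 6450 of the mitochondrial genome, the mt-Nd3 window at 9459 to 9519 and the mt-Atp6 window at 7927 to 7986, all on the plus strand and in coding sequence. mt-Atp8 (bases 7766 to 7969) also lies inside the stretch, but the table has 0 genes at the expected place on chromosome 1 other than Gm10925, which overlaps its end. The rest of mt-Atp8 was therefore not compared with chromosome 1. Thus 8 of the 13 mitochondrial genes lie in the copied stretch in whole or part, mt-Atp8 by its position only. The genes mt-Nd1, mt-Nd2, mt-Nd5, mt-Nd6 and mt-Cytb lie outside it. Less alike copies on chromosomes 2 and 13 (Gm13340 for mt-Co1, Gm13341 for mt-Co2, Gm13339 for mt-Nd2 and Gm4076 for mt-Nd5, 95.2% to 97.6% identical) held at most 0.196% of the counts of their gene and are not treated further.

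The targeted gene was examined first. Controls 1 and 3 gave 18.3 and 23.2 CPM of Mettl3 (counts scaled to library size), and knockouts 1 and 3 gave 13.9 and 19.6 CPM. The groups overlapped, since knockout 3 lay above control 1, and the fitted log2 fold change was -0.31 (SE 0.27, edgeR, adjusted p = 1.00). A count over the whole gene does not isolate the deleted part, which the labels do not name, so the genotypes rest on the labels. Xist stood at 0.589 and 0.624 CPM in control 1 and knockout 1 and at 1351 and 1161 CPM in control 3 and knockout 3, with the Y-linked Ddx3y the other way round (72.1, 89.1, 0.307 and 0.139 CPM in the order control 1, knockout 1, control 3, knockout 3). Library number and the sex pattern of the cells therefore cannot be told apart, and differences within each number are given beside the pooled ones. Total counts lay between 55100415 and 79209870. The 15 macrophage markers (such as Adgre1, Csf1r and Cd68) summed to 44879 to 62580 CPM. Of 11 epithelial markers, listed for the tumour cells (such as Epcam and Krt8), 7 were at 0 in all libraries and the list summed to 0.460 to 1.52 CPM. No library of MC38 cells alone was analysed, so whether those cells express these markers was not tested. The 12 fibroblast markers summed to 526 and 1121 CPM in the controls and 416 and 729 CPM in the knockouts, and the 10 erythroid and megakaryocyte markers to 570 and 661 against 359 and 363 CPM. Nearly all of the latter sum was Pf4 (561 and 654 against 356 and 362 CPM), and the other 9 markers came to 9.37 and 6.81 against 3.04 and 0.809 CPM. The part of these other cells in the results below was not tested. In bulk RNA, fewer cells of a type and less RNA per cell cannot be told apart.

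Per unit of length, mRNAs made in the mitochondrion stood far above those made in the nucleus. The 13 mitochondrial genes had a median FPKM, over the mean of the 4 libraries, of 1743, from 308 for mt-Nd3 to 8192 for mt-Co1, the catalytic core of complex IV. The 87 nuclear genes had a median of 22.4, from 0.169 for Cox6b2 to 180.2 for Cox6b1, a complex IV subunit at the contact between its monomers. Every one of the 13 mitochondrial genes lay above the highest nuclear gene. Of the nuclear sets, complex II had the highest median (49.6 FPKM over 4 genes). Next came complex III (31.0 over 9), complex V (28.6 over 17), complex IV (25.1 over 19) and complex I (15.3 over 37). FPKM depends on the length given to each gene, and so do these ranks. In control 1, Atp5l had 92.7 CPM and 12.8 FPKM, and Cox6b1 had 130 CPM and 163 FPKM. By CPM the 2 genomes overlapped: in the same library mt-Nd3 stood at 168 CPM and Atp5a1 at 497 CPM. The part of gene length in these levels was not tested.

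**Figure D1:**
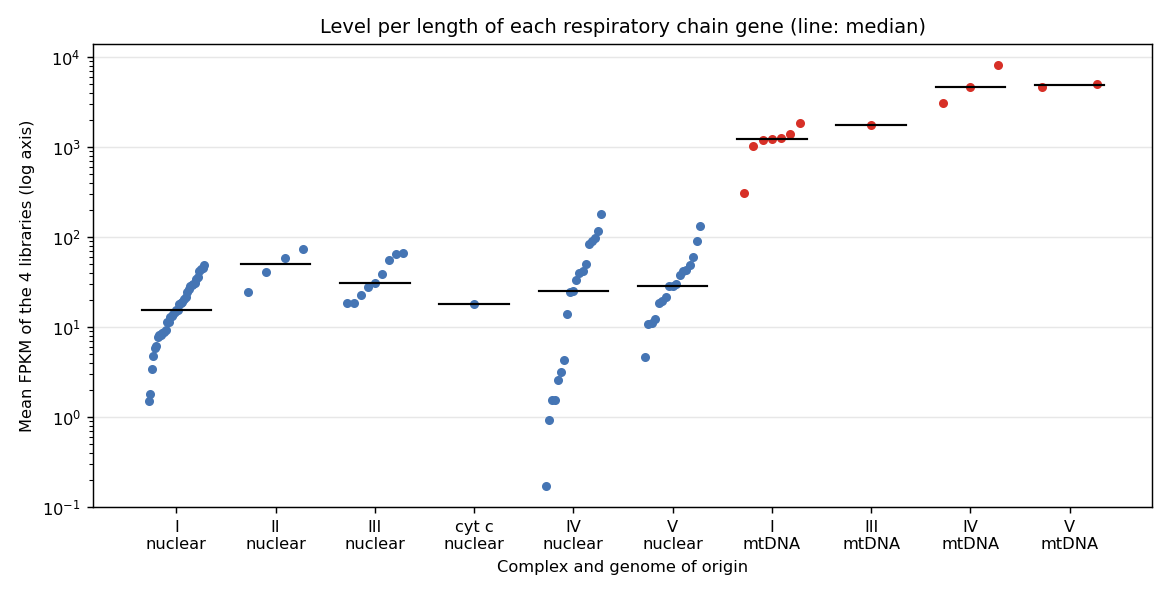
Level per length of each of the 100 respiratory chain genes, as the mean FPKM of the 4 libraries on a log axis, by complex and by genome of origin (blue, nuclear; red, mitochondrial DNA; black line, median of the set). The lowest mitochondrial gene, at 308 FPKM, lies above the highest nuclear gene, at 180.2 FPKM.

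The leading nuclear genes of the complexes differed in how far they varied between libraries. In complex V, Atp5a1 and Atp5b, the alpha and beta subunits that form the catalytic head, had the highest mean FPKM (133 and 90.6). Atp5a1 measured 497 and 446 CPM in controls 1 and 3, against 485 and 429 CPM for the knockouts, and Atp5b at 411 and 469 against 433 and 396 CPM. Neither gene separated the genotypes. In complex II, Sdhd (a membrane anchor, 73.0 FPKM) and Sdha (the flavoprotein, 58.0 FPKM) led. Sdha stood at 273, 256, 288 and 249 CPM in the order control 1, control 3, knockout 1, knockout 3, which is the order used in the rest of the text unless stated. Sdhd stood at 119, 85.8, 105 and 90.4 CPM, lower in both libraries numbered 3. The iron-sulphur subunit Sdhb stood at 95.2, 114, 97.1 and 104 CPM, and the anchor Sdhc at 81.4, 91.04, 95.4 and 87.6 CPM. For all 4 complex II genes the ranges of the genotypes overlapped. In complex III the small subunits Uqcr10 and Uqcrh led (66.2 and 65.4 FPKM), and in complex I Ndufa1 and Ndufa2 (49.2 and 44.9 FPKM), both accessory subunits. In complex IV, Cox6b1 stood at 130, 147, 142 and 149 CPM, while Cox4i1 was the least even of the leading genes, its highest library at 2.23 times its lowest. Cytochrome c (Cycs), the mobile carrier between complexes III and IV, stood at 52.0, 73.5, 71.5 and 79.1 CPM, lowest in control 1.

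Between genotypes the 13 mitochondrial mRNAs lay mostly lower in the knockouts, by an amount that did not pass the test, and the 87 nuclear genes lay close to 0. None of the 100 subunits passed the edgeR test at an adjusted p under 0.05 (the adjusted p was 1.00 for each), and DESeq2 called 0 of them. Over all genes edgeR called 0 of 17260 (0%) and DESeq2 called 73 of 19151 (0.381%). At an unadjusted p under 0.05 by edgeR there were 391 genes (2.27%), of which 1 was a subunit, Ndufs8. The median log2 fold change was -0.29 for the mitochondrial genes, 11 of 13 below 0, and -0.05 for the nuclear genes, 54 of 87 below 0, against -0.0013 over all tested genes. Both knockouts lay below both controls in 7 of 13 mitochondrial genes (53.8%) and in 14 of 87 nuclear genes (16.1%), where 13.4% of all tested genes did. Both knockouts lay above both controls in 1 mitochondrial gene (7.69%) and 8 nuclear genes (9.20%), against 13.1% of all tested genes. The nuclear shares were thus near those of all genes.

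**Figure D2:**
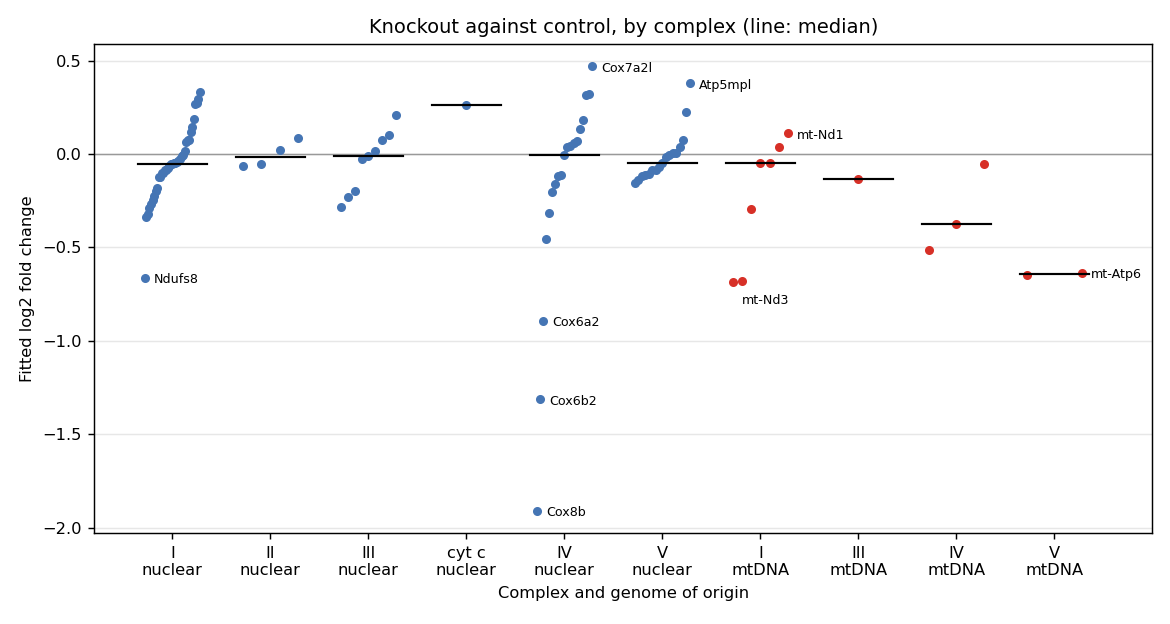
Fitted log2 fold change of knockout against control (edgeR) for each of the 100 genes, by complex and genome of origin, with the median of each set as a line; positive values are higher in the knockouts. The nuclear sets of complexes I to V have medians near 0, and cytochrome c, a single gene, lies at 0.26. The 2 mitochondrial genes of complex V lie at -0.64 and -0.65.

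Among the mitochondrial mRNAs the lower values in the knockouts lay mainly in the copied stretch. The 8 genes in the stretch had a median log2 fold change of -0.58. Both knockouts lay below both controls in 7 of them, all but mt-Co1, an order found in 13.4% of all tested genes. For the 5 genes outside the median was -0.05, and in 0 of the 5 did both knockouts lie below the controls. For mt-Atp6, a proton channel subunit of complex V, controls 1 and 3 measured 5233 and 3985 CPM, and knockouts 1 and 3 measured 2581 and 3346 CPM. mt-Atp8, its small partner in the membrane part, stood at 1480 and 1138 against 680 and 992 CPM. In both genes knockout 1 was the lowest library, with log2 differences of -1.02 and -1.12 within number 1 and of -0.25 and -0.20 within number 3. Their fitted log2 fold changes were -0.64 (SE 0.27, 95% interval -1.35 to 0.07) and -0.65 (SE 0.28, 95% interval -1.38 to 0.09).

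The complex I genes of the stretch gave the same picture. mt-Nd3 measured 168 and 127 CPM in controls 1 and 3, against 73.6 and 109 CPM for the knockouts, with a log2 fold change of -0.69 (SE 0.27). mt-Nd4l stood at 532 and 508 against 246 and 403 CPM, with a log2 fold change of -0.68 (SE 0.28). mt-Nd4, of which 876 of 1378 bases are in the match, stood at 1990 and 2113 against 1416 and 1936 CPM, a smaller log2 fold change of -0.29 (SE 0.24). All 3 are membrane subunits of complex I, and in each the lower knockout was knockout 1. Of the complex IV core subunits, mt-Co2 stood at 4439 and 3861 CPM against 2309 and 3498 CPM, and mt-Co3 at 3242 and 2883 against 2121 and 2600 CPM. mt-Co1, of which 31.3% of the length is matched, stood at 14542 and 14122 against 13064 and 14592 CPM, and its groups overlapped.

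Outside the stretch the genotypes overlapped in 4 of the 5 genes. mt-Nd1 measured 2003 and 1766 CPM in controls 1 and 3, against 2010 and 2061 CPM for the knockouts, the only mitochondrial gene with both knockouts above both controls. mt-Nd2 stood at 1213 and 1123 against 1074 and 1319 CPM, and mt-Nd5 at 2552 and 2562 against 2198 and 2742 CPM. mt-Nd6, the only subunit encoded on the other strand, stood at 851 and 798 against 699 and 897 CPM. It overlaps mt-Nd5 on the opposite strand by 14 bases, and whether counting used the strand was not given. mt-Cytb, the haem-carrying core of complex III, stood at 2374 and 2272 against 1823 and 2406 CPM. In the last 4 genes knockout 1 was the lowest library and knockout 3 the highest, so that each genotype difference within number 1 ran against that within number 3. Over all 13 genes the median was -0.49 for knockout 1 against control 1 and -0.13 for knockout 3 against control 3. The fitted median was -0.07 without knockout 1 and -0.53 without knockout 3.

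The share of counts assigned to the chromosome 1 copies differed between the same libraries. Of the counts of the 7 gene pairs together, the copies held 4.25% in control 1 (Wilson 95% interval 4.22% to 4.28%, counting error only), 4.96% in control 3 (4.93% to 4.99%), 25.8% in knockout 1 (25.7% to 25.8%) and 17.6% in knockout 3 (17.6% to 17.7%). The 5 copies of identical or nearly identical full length, those of mt-Co2, mt-Atp6, mt-Co3, mt-Nd3 and mt-Nd4l, held 3.10% to 3.65% in control 1, 7.80% to 8.47% in control 3, 37.2% to 43.7% in knockout 1 and 24.9% to 30.4% in knockout 3. Within a library these 5 shares were close to each other although the genes differ widely in level. For mt-Co1 the share was 3.90%, 2.41%, 13.1% and 8.37%, and for mt-Nd4 it was 11.8%, 3.58%, 22.2% and 16.1%. The copies' own log2 fold changes lay between 1.17 and 2.74, with a median of 2.52. DESeq2 called 6 of the 7 copies, all but Gm28439, where it called 73 of 19151 genes (0.381%). The edgeR test called 0 copies (lowest adjusted p = 1.00). All copies lie in the same stretch, so these calls are not independent of each other. Gm10925, the copy of mt-Atp6, measured 198 and 369 CPM in controls 1 and 3, against 1915 and 1459 CPM for the knockouts.

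**Figure D3:**
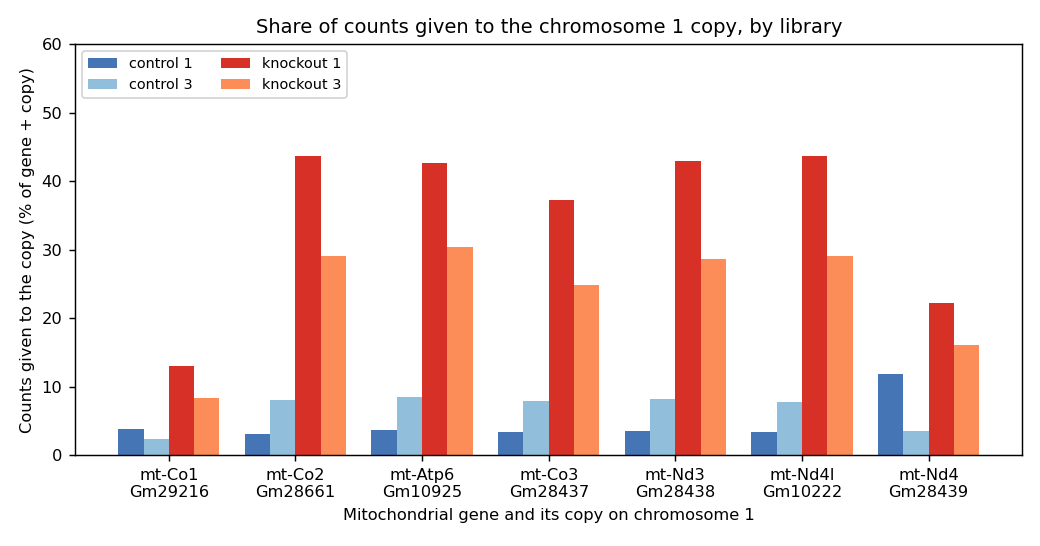
Counts assigned to each chromosome 1 copy, as a percentage of the counts of the mitochondrial gene and its copy together, for the 7 pairs in each of the 4 libraries. Both knockouts lie above both controls in each pair, with knockout 1 between 13.1% and 43.7%.

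With the counts of each copy added to its mitochondrial gene, the difference between genotypes was close to 0. The 7 pairs together had a median log2 fold change of -0.07, against -0.52 for the mitochondrial genes alone, and a range of -0.14 to 0.08. Both knockouts lay below both controls in 0 of the 7 pairs and above in 1, mt-Co3, where 6 of the 7 mitochondrial genes had lain below. Within number 1 the median went from -0.94 to -0.27, and within number 3 from -0.15 to 0.14. For mt-Atp6 and Gm10925 the sums were 5431, 4354, 4495 and 4805 CPM, and for mt-Nd3 and Gm28438 they were 174, 138, 129 and 153 CPM. Over the 13 genes the median was then -0.05. mt-Atp8, in the stretch but with no copy of its own in the table, kept its log2 fold change of -0.65, since no counts were added to it. How reads that match both places were assigned was not given in the sources used here, and whether the copies were transcribed was not tested.

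**Figure D4:**
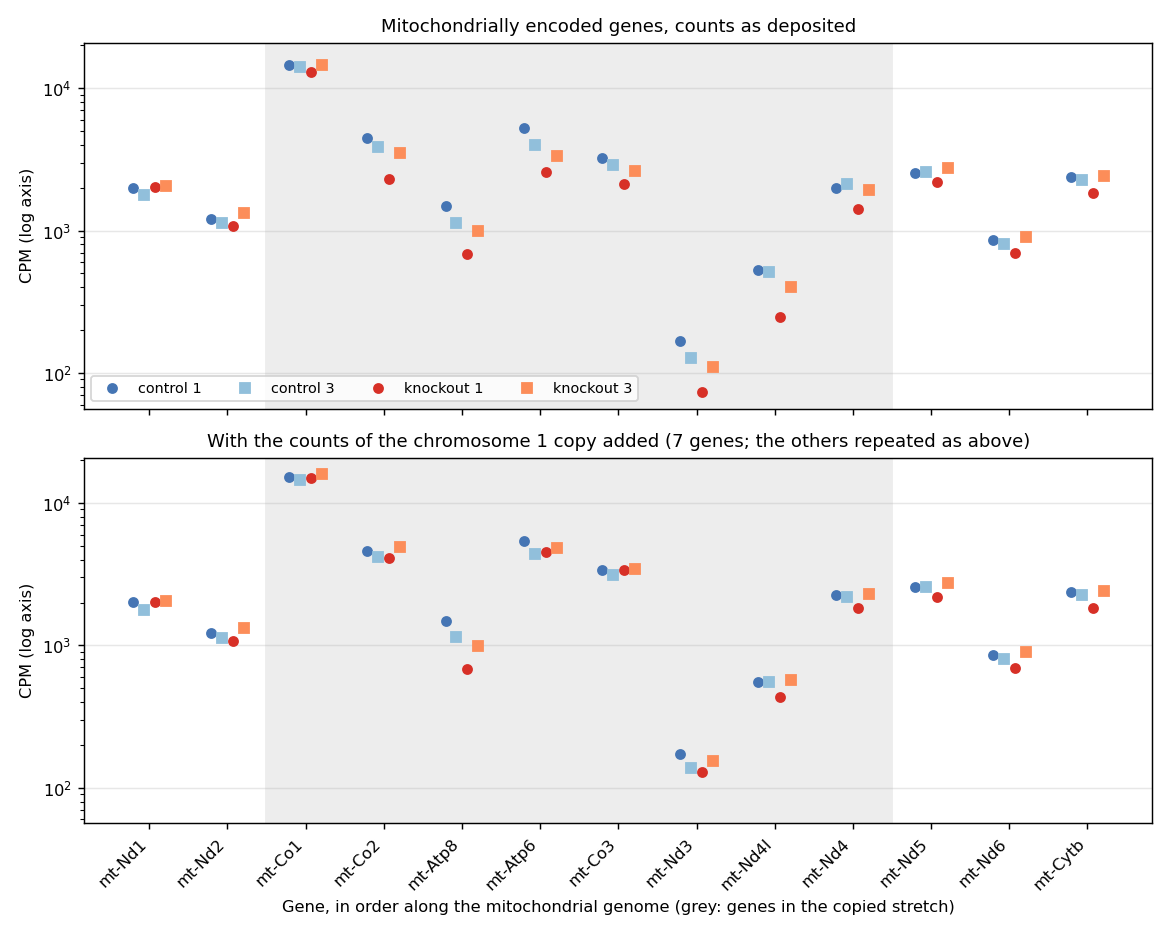
CPM (log axis) of the 13 mitochondrial genes in each library, in order along the mitochondrial genome, as deposited (top) and with the counts of the chromosome 1 copy added for the 7 genes that have one (bottom); grey marks the genes in the copied stretch. In the top panel knockout 1 is the lowest library for all genes but mt-Nd1; in the bottom panel the genotypes overlap in all 7 combined genes but mt-Co3.

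The summed level of the mitochondrial genes relative to the nuclear ones was lowest in knockout 1. The ratio of summed FPKM, mitochondrial over nuclear, was 15.5 and 13.7 for controls 1 and 3 and 9.75 and 13.9 for knockouts 1 and 3. The numerator varied more, between 27916 and 41935 FPKM, than the denominator, between 2537 and 2863 FPKM. The mitochondrial genes held 4.004%, 3.78%, 3.03% and 3.69% of all counts. With the counts of the 7 chromosome 1 copies added the shares were 4.14%, 3.92%, 3.78% and 4.25%, so that knockout 1 was still the lowest library and knockout 3 became the highest. Without the copies, knockout 3 lay between the controls in the ratio, so the genotypes overlapped, and 2 libraries against 2 cannot give an exact permutation p below 0.333.

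Of the nuclear genes, Ndufs8 had the smallest p in the genotype comparison. It encodes an iron-sulphur subunit in the electron path of complex I, and lies on chromosome 19, bases 3908863 to 3912734 on the minus strand. Its level was 37.9 and 33.9 CPM in controls 1 and 3, against 25.8 and 19.6 CPM for knockouts 1 and 3. Both knockouts lay below both controls, with log2 differences of -0.56 within number 1 and -0.79 within number 3. The fitted log2 fold change was -0.66 (SE 0.22, 95% interval -1.24 to -0.09), with an unadjusted p of 0.032 by edgeR and an adjusted p of 1.00. It was thus not called. With 1 library left out the log2 fold change lay between -0.86 and -0.48.

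Larger fitted differences than that of Ndufs8 stood at 3 nuclear genes of low level, Cox8b (-1.91), Cox6b2 (-1.31) and Cox6a2 (-0.89), none of which was called. By p, the next 3 lower genes after Ndufs8 were Cox5b, a matrix-side subunit of complex IV (46.0 and 49.1 against 41.2 and 35.3 CPM), Ndufb5 (27.9 and 31.5 against 24.3 and 23.2 CPM) and Ndufa7 (29.1 and 40.8 against 26.0 and 29.2 CPM), the latter 2 accessory subunits of complex I. The groups were separate for Cox5b and Ndufb5 and overlapped for Ndufa7. The 4 higher genes of smallest p were Atp5mpl (25.4 and 24.9 against 27.2 and 38.3 CPM), Ndufa1 (22.6 and 18.7 against 24.2 and 26.3 CPM), Ndufa4 (39.4 and 29.3 against 39.8 and 45.8 CPM) and Ndufs4 (20.6 and 24.5 against 25.1 and 29.1 CPM). All 4 had both knockouts above both controls, by fitted log2 values of 0.27 to 0.38, and the unadjusted p by edgeR was at least 0.170. Ndufa1 and Ndufs4 are accessory subunits of complex I needed for its assembly, Atp5mpl is a small protein of ATP synthase, and Ndufa4, first listed with complex I, belongs to complex IV.

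By complex, the nuclear medians of the genotype comparison were -0.05 for complex I (26 of 37 below 0), -0.01 for complex II (2 of 4), -0.01 for complex III (5 of 9), -0.0032 for complex IV (10 of 19) and -0.05 for complex V (11 of 17). Within number 1 the median of all 87 was 0.05 and within number 3 it was -0.12. In the nuclear genes without the pseudogenes and the tissue-restricted isoforms (78 genes), the highest library was a median of 1.27 times the lowest. Over the nuclear genes as a whole, leaving out Cox8b with a library at 0, it was 1.32 times. Over all tested genes with counts in every library it was 1.60 times, but these were not matched to the subunits for level. For the mitochondrial genes the same ratio was 1.49.

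Complex IV has subunits with paralogues of restricted tissue use, and these stood low. Cox4i1, the ubiquitous form of subunit 4, had a mean of 116 FPKM and Cox4i2, the form best known from lung, 0.933. Cox6a1, the liver-type form, had 83.1 FPKM and Cox6a2, the heart and muscle form, 2.57. Cox7a2 had 42.4 FPKM, Cox7a1, the heart and muscle form, 4.29, and Cox7a2l, known as a factor in joining complexes III and IV, 98.1. Cox8a stood at 91.2 FPKM and Cox8b at 1.53. Of the 3 genes for the identical mature subunit c of ATP synthase, Atp5g2 had 37.6 FPKM, Atp5g3 28.3 and Atp5g1 4.63. These values depend on the length given to each gene, and by CPM Atp5g1 lay less far below. Atp5g1 stood at 21.5, 29.1, 26.8 and 23.7 CPM, Atp5g3 at 69.7, 67.3, 78.3 and 59.2 CPM, and Atp5g2 at 81.4, 63.8, 76.0 and 58.9 CPM.

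The libraries numbered 3 and 1 were compared next, as the other label of the libraries, to show how the subunits vary apart from genotype. Fibroblast markers moved with the number: 10 of 12 lay above 0 in number 3 with a median log2 fold change of 1.32, 7 called by DESeq2 and 1 (Postn) by edgeR. Their part in the subunit differences was not tested. Of the nuclear genes with a mean FPKM of at least 10, Cox7a2l and Cox4i1 of complex IV differed most, both lower in the libraries numbered 3. Cox4i1 stood at 255 and 264 CPM in control 1 and knockout 1 and at 161 and 119 CPM in control 3 and knockout 3. Its log2 fold change, number 3 against number 1, was -0.89 (SE 0.18), with an adjusted p of 0.100 by edgeR and 6.94e-04 by DESeq2. Cox7a2l stood at 177 and 267 CPM in the libraries numbered 1 and at 94.2 and 109 CPM in those numbered 3, a log2 fold change of -1.13 (SE 0.23, adjusted p = 0.104 by edgeR and 2.47e-04 by DESeq2). The groups did not overlap for either gene. These were the 2 subunits called by DESeq2, which called 1557 of 18696 genes (8.33%). edgeR called 0 subunits, and 177 of 17260 genes (1.03%), at an adjusted p under 0.05. At an unadjusted p under 0.05 edgeR had 8 of the 100 subunits, against 3146 of 17260 genes (18.2%). Cox4i1 overlaps Emc8 on the opposite strand by 352 bases, and the labels do not say whether counting used the strand.

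**Figure D5:**
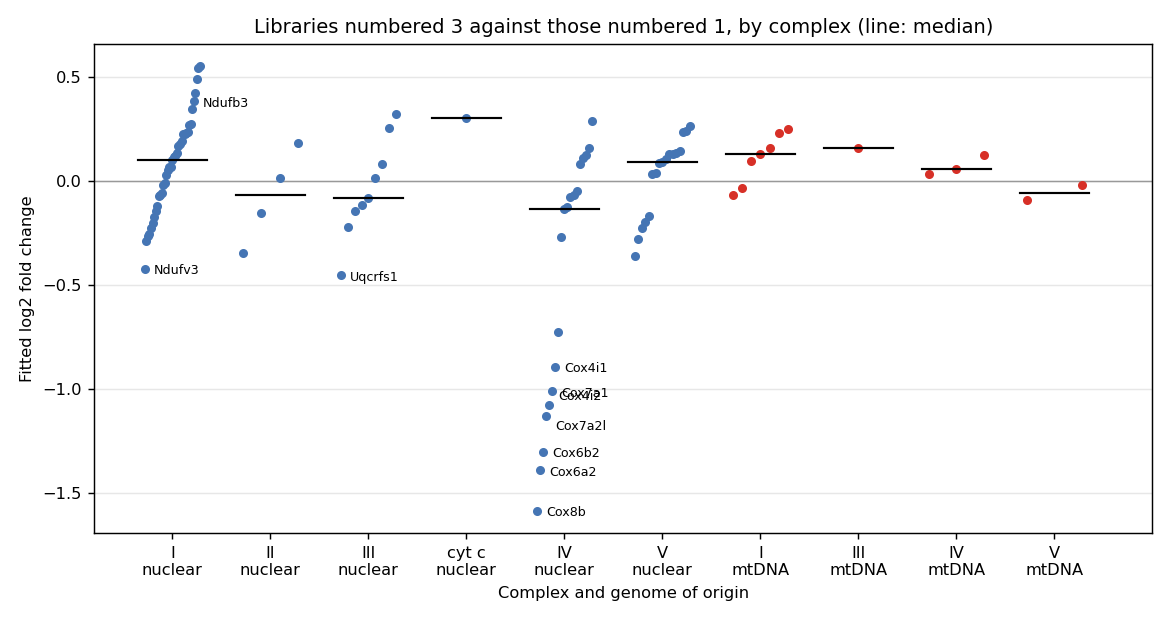
Fitted log2 fold change of the libraries numbered 3 against those numbered 1 (edgeR) for each of the 100 genes, by complex and genome of origin, with the median of each set as a line; positive values are higher in number 3. Cox4i1 at -0.89, Cox7a2l at -1.13 and the tissue-restricted isoforms lie below the other nuclear genes of complex IV.

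The tissue-restricted isoforms also stood lower in the libraries numbered 3, at low levels. All 6 in the set (Cox4i2, Cox6a2, Cox6b2, Cox7a1, Cox8b and Ndufa4l2) had a log2 fold change below 0, from -1.59 to -0.73 with a median of -1.19, and 4 of the 6 had both libraries numbered 3 below both numbered 1, an order found in 25.2% of all tested genes. Cox7a1 stood at 3.76 and 3.10 CPM in number 1 and at 2.18 and 1.23 CPM in number 3. Cox6a2 stood at 3.31 and 2.34 against 1.76 and 0.404 CPM. Cox8b was at 1.34 and 0.630 CPM in the controls, at 0.528 CPM in knockout 1 and at 0 in knockout 3. Leaving out Cox8b, whose lowest library was at 0, the highest of the 4 libraries was a median of 3.19 times the lowest. None of the 6 passed either test. Between genotypes their median was -0.67, with 5 of 6 below 0.

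Elsewhere the numbers differed by less. Both libraries numbered 3 lay below both numbered 1 in 20 of 87 nuclear genes (23.0%) and above in 26 (29.9%), against 25.2% and 26.2% of all tested genes. In complex I, 15 of 37 nuclear genes (40.5%) lay above and 3 (8.11%) below. In complex IV, 7 of 19 (36.8%) lay below and 3 (15.8%) above. The complex I gene with the smallest p, Ndufv3, an accessory subunit, was lower in number 3 (66.3 and 81.0 CPM in number 1 against 57.0 and 52.9 in number 3, adjusted p = 0.230 by edgeR). Of those higher in number 3 the smallest p belonged to Ndufb3 (24.3 and 26.2 CPM in number 1 against 31.0 and 34.9 in number 3), Ndufb6 (9.24 and 8.85 against 13.9 and 11.5), Ndufa5 (12.1 and 10.3 against 15.0 and 15.0) and Ndufa2 (26.0 and 25.8 against 32.4 and 30.0), all accessory subunits. Lower in number 3 were also Atp5g2 (81.4 and 76.0 CPM in number 1 against 63.8 and 58.9 in number 3) and Uqcrfs1, the Rieske iron-sulphur protein of complex III (65.0 and 71.0 against 44.2 and 55.1 CPM). For the 6 genes from Ndufb3 to Uqcrfs1 the numbers did not overlap and the adjusted p by edgeR lay between 0.213 and 0.362. The mitochondrial genes did not separate the numbers: 1 of 13, mt-Nd5, had both libraries numbered 3 above both numbered 1, and 0 lay below.

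Near-identical copies also touched some nuclear genes. A copy with counts was found for 19 of the 87, and for 5 the copies' counts came to over 20% of the gene's own. Ndufa12-ps held 187% of the counts of Ndufa12. Ndufa12 itself was lowest in control 1, at 6.61 CPM, with 12.2 CPM in control 3 and 10.7 CPM in knockout 1. With its copy added the levels were 24.7, 35.5, 30.0 and 33.3 CPM, so the log2 difference between genotypes went from 0.69 to 0.28 within number 1 and turned from 0.09 to -0.09 within number 3. For Atp5g1 the copy Gm10039 held 44.3%, for Atp5l 6 copies held 29.6%, for Uqcr11 the copy Gm16418 held 22.2% and for Atp5h the copy Gm10250 held 21.4%. In these 4 genes adding the copies moved no difference within a number by more than 0.11. A further limit is that 23 of the 87 overlap another gene on the opposite strand.

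The helpers that build the complexes were examined as lists. Of 51 tested assembly factors of complexes I to V, 0 passed edgeR or DESeq2 between genotypes in either direction, and 35 lay above 0 and 16 below, with a median of 0.10. In the complex IV list, which holds copper chaperones and haem synthesis enzymes, 18 of 22 lay above 0. The genes of smallest p there were Cox16 (7.18 and 7.90 CPM in the controls against 9.29 and 11.0 in the knockouts) and Cox11, a copper chaperone (2.10 and 3.05 against 2.70 and 4.38 CPM). Cox16 separated the groups and Cox11 did not. In the complex I list, Ndufaf4 measured 12.4 and 11.2 CPM in controls 1 and 3, against 2.83 and 5.67 CPM for the knockouts (log2 fold change -1.47, SE 0.42, adjusted p = 1.00 by edgeR), and Foxred1 at 25.0 and 22.6 against 30.4 and 29.2 CPM. Both genes separated the groups, in opposite directions.

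The list for transcription and RNA processing in the mitochondrion had a median of 0.13, with 18 of 26 above 0, 0 called in either direction by either tool, and both knockouts above both controls in 6, where 13.1% of all tested genes had this order. Slirp, the partner of Lrpprc in stabilising mitochondrial mRNAs, stood at 16.0 and 22.5 CPM against 36.3 and 25.6 CPM, and Pnpt1, an exoribonuclease of mitochondria, at 20.05 and 27.4 against 31.1 and 41.3 CPM. In both, the knockouts lay above the controls (log2 fold changes of 0.68, SE 0.29, and 0.61, SE 0.26; adjusted p = 1.00 by edgeR). Among nuclear regulators of respiratory genes (10 tested, median 0.01, 0 called) the coactivator Pprc1 stood at 37.5 and 61.8 against 44.7 and 33.1 CPM, and Ppargc1a at 0.295 and 0.662 against 0.368 and 0.152 CPM. Their groups overlapped.

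Promoter sequence was read for what the nuclear genes share apart from their names. RefSeq windows (GRCm38.p6, 250 bases before to 50 after the start) were looked up by Ensembl identifier and otherwise by symbol. Windows were found for 68 of the 84 nuclear genes that are not annotated pseudogenes. In these, 5 motifs, none of which contains another, were searched on both strands. The NRF1 motif GCGCATGCG, bound by a regulator of respiratory genes, was in 9 of 68 (13.2%) against 1.95% of 27025 genes. The ETS motif CCGGAAG was in 17 (25.0%) against 9.93%, and the YY1 motif AAGATGGC in 10 (14.7%) against 3.19%. The CCAAT box (CCAAT) was in 30 (44.1%) against 41.1%, and TATAAA in 7 (10.3%) against 15.7%. The 9 genes with the NRF1 letters were Atp5g2, Atp5k, Atp5l, Cox6a1, Cycs, Ndufa8, Ndufa11, Uqcr11 and Uqcrc1. For 4 of them a window upstream of the start is printed as the plainest case of a shared sequence, with the motif, or in Cycs its reverse complement, in capitals.
Cox6a1: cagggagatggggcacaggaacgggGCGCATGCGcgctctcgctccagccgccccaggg
Atp5k: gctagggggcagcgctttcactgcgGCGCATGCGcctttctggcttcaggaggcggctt
Atp5g2: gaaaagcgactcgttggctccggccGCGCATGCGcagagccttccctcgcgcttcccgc
Cycs: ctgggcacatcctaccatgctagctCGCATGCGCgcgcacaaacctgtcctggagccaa
The capitals begin 162, 50, 42 and 61 bases before the transcription start in the same order. The windows lie at chr5:115349087-115349145, chr5:108434416-108434474, chr15:102671056-102671114 and chr6:50566597-50566655, all on the minus strand. Starts here are those of RefSeq; as the deposited table bounds the genes, the Atp5g2 window lies inside the gene and the Atp5k window runs into it. A match is a description of the letters, not of binding. None of these 4 genes separated the genotypes: Cox6a1 stood at 63.1, 64.5, 72.1 and 59.6 CPM, Atp5k at 23.9, 35.9, 30.7 and 28.4 CPM, and Atp5g2 and Cycs at the levels given above.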

How the data were processed

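Poly(A) RNA of 4 libraries was sequenced as paired reads of 150 bases after dUTP strand marking, per the labels' protocols. The submitters' processing notes name cutadapt 1.9, HISAT2 2.0.4 and StringTie 1.3.4d, with edgeR and DESeq2 given without a version. The genome build, the use of strand in counting and the treatment of reads with several matches were not given in the sources used here. A table deposited by the authors holds 55401 genes with an estimated count and an FPKM value (scaled by gene length and library size) per gene and library, per the file headers. A further 4 columns of values matched no sample and were not used. Start and end were those of GENCODE M21 (GRCm38) for 94.2% of the 55141 identifiers in common, and for 87 of the 100 subunit genes. Gene coordinates in the text are those of the deposited table, and promoter windows follow RefSeq starts.

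Total counts were 55100415 and 61075754 for controls 1 and 3 and 62563556 and 79209870 for knockouts 1 and 3. Between 38.7% and 39.5% of low counts were multiples of 4, so a count need not be 1 read, and intervals from counts cover counting error only. CPM here means counts scaled by the TMM-adjusted library size.

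The estimated counts, already whole, were tested with the two-sided quasi-likelihood test of edgeR 4.0.16 in R 4.3.3 (TMM, filterByExpr), over all 17260 genes that passed the filter on low counts. Adjustment was by Benjamini-Hochberg over those genes at a threshold of 0.05. The design had named limma for a table without counts, which did not apply. The same test compared the library numbers. Alternatives were DESeq2 1.42.0, RLE scaling, TMM without mitochondrial genes, no filter, limma 3.58.1 on log2(FPKM + 1), a replicate block, and leaving out each library. Adding the counts of nuclear copies to their mitochondrial counterparts was chosen after the data were seen. The edgeR script was tested on simulated data.

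Copies were found by aligning the GENCODE M21 transcripts of the subunit genes to all others (identity of at least 95% over at least 150 bases). Promoter sequences came from RefSeq (GRCm38.p6). The subunit genes, the gene lists and the tests were chosen with earlier results of these data known. Genes named in the text were all 13 mitochondrial genes, complex II whole, the 2 nuclear genes of highest mean FPKM in each complex, the 4 per direction of smallest p in each comparison and the isoform sets of Cox4, Cox6a, Cox7a and Atp5g. Of the pathway lists the 2 genes of smallest p were taken. Other names in the text were chosen after their values were seen.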

Additional observations from a re-analysis of the deposited data

How the results depend on the processing

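Between genotypes, 0 of the 100 subunits passed the test under the settings tried, and 456 of 506 values for the 46 named genes kept their direction; the lowest adjusted p among these was 0.852. With DESeq2, 73 genes were called against 0. For the library numbers, the count of genes called was 177 with edgeR, 375 with no filter on low counts, 1557 with DESeq2, 104 with limma on log2(FPKM + 1) and 1 to 87 when 1 library was left out (4 without control 1, 57 without control 3, 1 without knockout 1, 87 without knockout 3), and subunits called were 2 with DESeq2 against 0. The cause of these differences was not tested. A fit with 1 library left out also rests on fewer samples.

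With the copies added (chosen after the data were seen), the direction turned for mt-Co1 (0.064), mt-Co2 (0.039) and mt-Co3 (0.075). It did not turn for mt-Atp6 (-0.074), mt-Nd3 (-0.14), mt-Nd4 (-0.11) and mt-Nd4l (-0.13). The upward shift follows from the added counts, which were higher in both knockouts for each copy. Atp5g1 turned to 0.0031 with no filter and 0.0083 with the replicate block. Atp5g3 turned to -0.0082 with the replicate block and -0.015 with limma on log2(FPKM + 1). The labels do not say that equal numbers share a litter or day; deviations from the group means correlated at 0.419, a single value that both pairs must share with 2 libraries a group, as a hint from the data only. With the replicate block 0 genes were called between genotypes, and the medians were -0.31 (mitochondrial) and -0.05 (nuclear). With genotype as a term, 122 genes were called between numbers.

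Leaving out 1 library turned the direction of 27 named genes, for which the log2 fold change between genotypes lay in these ranges: mt-Nd2 (-0.12 to 0.19), mt-Nd5 (-0.22 to 0.12), mt-Nd6 (-0.24 to 0.14), mt-Cytb (-0.35 to 0.068), mt-Co1 (-0.13 to 0.043), Ndufa2 (-0.21 to 0.11), Sdhd (-0.28 to 0.20), Sdha (-0.068 to 0.12), Uqcr10 (-0.045 to 0.20), Uqcrh (-0.13 to 0.13), Cox6b1 (-0.014 to 0.17), Cox4i1 (-0.79 to 0.35), Atp5a1 (-0.12 to 0.042), Atp5b (-0.17 to 0.017), Ndufb3 (-0.079 to 0.35), Ndufb6 (-0.44 to 0.15), Ndufa5 (-0.40 to 0.16), Cox7a2l (-0.30 to 1.00), Atp5g2 (-0.29 to 0.086), Uqcrfs1 (-0.039 to 0.52), Cox4i2 (-1.24 to 0.41), Cox6a1 (-0.081 to 0.18), Cox7a1 (-1.26 to 0.065), Cox7a2 (-0.30 to 0.066), Atp5g1 (-0.20 to 0.23), Atp5g3 (-0.19 to 0.19) and Sdhb (-0.17 to 0.086). Over the mitochondrial genes the median then lay between -0.53 and -0.07, and over the nuclear genes between -0.08 and 0.02.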

Other observations

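Among 2 other groups of mitochondrial genes, neither tool called a gene between genotypes, and 0 genes of either group had an unadjusted edgeR p under 0.05. Of 16 tested genes of the tricarboxylic acid cycle and pyruvate dehydrogenase, 8 lay above 0 and 8 below, and edgeR and DESeq2 called 0. The median of their log2 fold changes was -0.01. Ogdh, a subunit of the 2-oxoglutarate dehydrogenase complex, measured 266 and 214 CPM in controls 1 and 3, against 282 and 283 CPM for the knockouts, and Dlst, its partner, 80.3 and 68.8 against 62.1 and 68.6 CPM. The groups were separate for both genes, in opposite directions.

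Of 17 tested genes of mitochondrial import and the mitochondrial membranes, 14 lay above 0, with a median of 0.05, and both tools called 0. Timm17a, a channel subunit of the inner membrane translocase, measured 32.5 and 30.8 CPM against 34.8 and 44.99 CPM, and Tomm22, a receptor of the outer membrane translocase, 53.7 and 55.6 against 58.4 and 61.7 CPM. Both knockouts lay above both controls in these 2 genes.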
